A study of Macaca fascicularis with 16 samples.

Results

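The dual-specificity MAP kinase phosphatases are the enzymes that switch MAP kinases off. Members were taken by gene symbol from the count tables of the single animals: DUSP1, DUSP2, DUSP4, DUSP5, DUSP6, DUSP7, DUSP10 and DUSP16, which are 8 of 23602 gene symbols. The rule itself used no measured value, but the members were chosen with earlier results of these data known. Blood was drawn from 4 cynomolgus macaques (Macaca fascicularis) of Mauritian origin, named LG04, LG11, LG12 and LG15, before and after the antibody NKTT320, which is directed at the invariant receptor of iNKT cells. Each animal gave a sample before treatment and at 30 minutes, 2 hours and 1 day after it, so that each time is a group of 4 libraries and all 16 libraries come from the same 4 animals. Peripheral blood mononuclear cells (PBMC) were isolated on a density gradient and were not sorted, and total RNA was sequenced after removal of ribosomal RNA. The labels give no dose, age or sex, and no samples of untreated animals were analysed here, so time after the antibody and repeated bleeding cannot be told apart.

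MAP kinases are active only while a threonine and a tyrosine in their activation loop both carry phosphate, and a MAP kinase phosphatase removes both. In human and mouse cells DUSP1, DUSP2, DUSP4 and DUSP5 are nuclear enzymes whose genes are induced by the kinases they then inactivate, DUSP6 and DUSP7 act on ERK in the cytoplasm, and DUSP10 and DUSP16 act mainly on JNK and p38. In lymphocytes and myeloid cells these transcripts are induced within minutes of stimulation and many are short-lived, so their level is widely used as a readout of recent MAP kinase signalling.

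The libraries held between 1417467 and 8582852 counts assigned to genes. Globin transcripts took between 0.0253% and 48.7% of them, with the highest share in LG04 at 2 hours and shares below 0.2% in every LG12 library. The LG04 library of 1 day was nearest in its counts to the LG15 library of 1 day (a chi-square per gene of 11.46, against 89.22, 128 and 159.4 to the other LG04 libraries). This measure took in the globin counts and grows with library depth. The LG04 and LG15 libraries of 1 day held 1846011 and 3156626 counts. The other LG04 libraries held 6362826, 8582852 and 7230371. These LG04 and LG15 libraries of 1 day also had the highest summed platelet markers of all libraries. The part of depth, globin and platelets in this nearness was not tested. The series-wide values of 2 hours repeat the LG04 library of 1 day under LG04 at 2 hours. The series-wide values of 1 day hold the same library under LG04 at 1 day. Labels follow the tables of the single animals, but the files do not settle which of these LG04 labels is right, and every count over 4 animals at 2 hours and at 1 day rests on them. The members' changes at 1 day are therefore given with and without that library. Levels below are CPM, the counts scaled to a common library total after TMM normalization, unless the length-scaled FPKM of the authors is named. Because PBMC are a mixture, fewer cells of a type and less RNA per cell cannot be told apart.

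At 1 day after NKTT320, DUSP1 and DUSP10 were lower than before treatment in 4 of 4 animals, by 2.30-fold and 2.02-fold. They were the members that passed an adjusted p of 0.05 in any pair of times (edgeR quasi-likelihood test, Benjamini-Hochberg over 11545 genes). DUSP2 and DUSP5 had fitted changes of -1.30 and -0.70 on the log2 scale at 1 day without passing. No member passed in the higher direction. At this threshold 0.225% of all genes tested differed at 1 day, 6 of them higher and 20 lower, and all 8 members were among the genes tested.

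DUSP1, or MKP-1, is a nuclear phosphatase that favours p38 and JNK and limits cytokine production by myeloid cells. Before treatment DUSP1 stood at 451 CPM in LG04, 813 in LG11, 286 in LG12 and 408 in LG15, and at 30 minutes at 381, 823, 227 and 429 CPM in the same order of animals. At 2 hours the 4 animals had 406, 841, 268 and 340.2 CPM, and at 1 day 114, 585, 143 and 138 CPM. On this TMM-scaled CPM each animal stayed near its own pre-treatment level through 2 hours. The log2 changes lay between -0.33 and 0.07 at 30 minutes and between -0.26 and 0.05 at 2 hours. For LG04 this depended on the scaling. Scaled to the library total without globin genes, LG04 had 531 CPM before treatment, 383 at 30 minutes and 364 at 2 hours. In the authors' FPKM it had 209, 132 and 112. LG11 had 1000, 1001 and 1008 CPM without globin genes. LG11 was the highest animal at all 4 times. At 1 day LG04, LG12 and LG15 were below every earlier DUSP1 value in the study, whereas LG11 at 1 day was above the pre-treatment level of the other 3 animals, so the 2 groups overlapped. DUSP1 averaged 245 ± 227 CPM at 1 day and 489.6 ± 226 CPM before treatment (SD, n = 4 each). The fitted log2 change was -1.20 ± 0.22 (SE), with an adjusted p of 0.0493 (edgeR quasi-likelihood test, Benjamini-Hochberg). At 30 minutes and 2 hours the fitted changes were -0.12 and -0.12, with 95% intervals of -0.58 to 0.34 at both times.

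DUSP10, or MKP-5, acts on JNK and p38 in nucleus and cytoplasm, and restrains cytokine production by T cells and myeloid cells in mice. Before treatment DUSP10 stood at 45.9 CPM in LG04, 56.8 in LG11, 54.0 in LG12 and 36.8 in LG15, and at 30 minutes at 33.1, 35.5, 43.4 and 30.9 CPM. At 2 hours the animals had 32.8, 36.7, 39.8 and 19.98 CPM, and at 1 day 23.0, 27.7, 22.6 and 20.9 CPM. All 4 animals at 1 day were below all 4 before treatment, and below all 4 at 30 minutes. The 2 hours group overlapped the 1 day group through LG15, which had its lowest value at 2 hours. DUSP10 averaged 23.6 ± 2.92 CPM at 1 day and 48.4 ± 8.99 CPM before treatment (SD, n = 4 each). Its log2 change was -1.01 ± 0.15 (SE), with an adjusted p of 0.0148 (edgeR quasi-likelihood test, Benjamini-Hochberg), and the 4 animals moved by between -0.81 and -1.26. Over all genes, 2.07% had a 1 day range wholly below the pre-treatment range.

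DUSP10 was also lower in 4 of 4 animals at the 2 earlier times, with log2 changes of -0.43 ± 0.14 at 30 minutes and -0.59 ± 0.14 at 2 hours. In the edgeR quasi-likelihood test the unadjusted p was 0.0105 at 30 minutes and 0.00132 at 2 hours, and the adjusted p was 1.00 and 0.260, so neither passed. Between later times, DUSP10 had a log2 difference of -0.59 ± 0.15 at 1 day against 30 minutes (adjusted p of 0.122 with edgeR, lower in 4 of 4 animals) and of -0.43 ± 0.15 at 1 day against 2 hours (adjusted p of 0.298 with edgeR, lower in 3 of 4 animals).

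The DUSP1 call was lost without any 1 of the 4 animals, and the DUSP10 call without LG04, LG11 or LG12. Without LG04 the adjusted p was 0.208 for DUSP1 and 0.164 for DUSP10, without LG11 it was 0.0845 and 0.134, and without LG12 it was 0.260 and 0.240 (edgeR quasi-likelihood test). Without LG15 it was 0.0848 for DUSP1 and 0.0279 for DUSP10. The log2 changes themselves stayed between -1.45 and -0.999 for DUSP1 and between -1.07 and -0.92 for DUSP10. With the LG04 library of 1 day alone left out, DUSP10 kept its call, with a log2 change of -1.02 and an adjusted p of 0.0445, and DUSP1 had a log2 change of -1.0 and an adjusted p of 0.0764 (edgeR quasi-likelihood test). In that fit the other members had log2 changes of -1.18 for DUSP2, -0.68 for DUSP4, -0.72 for DUSP5, 0.53 for DUSP6, 0.42 for DUSP7 and -0.15 for DUSP16, and none was called.

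**Figure D1:**
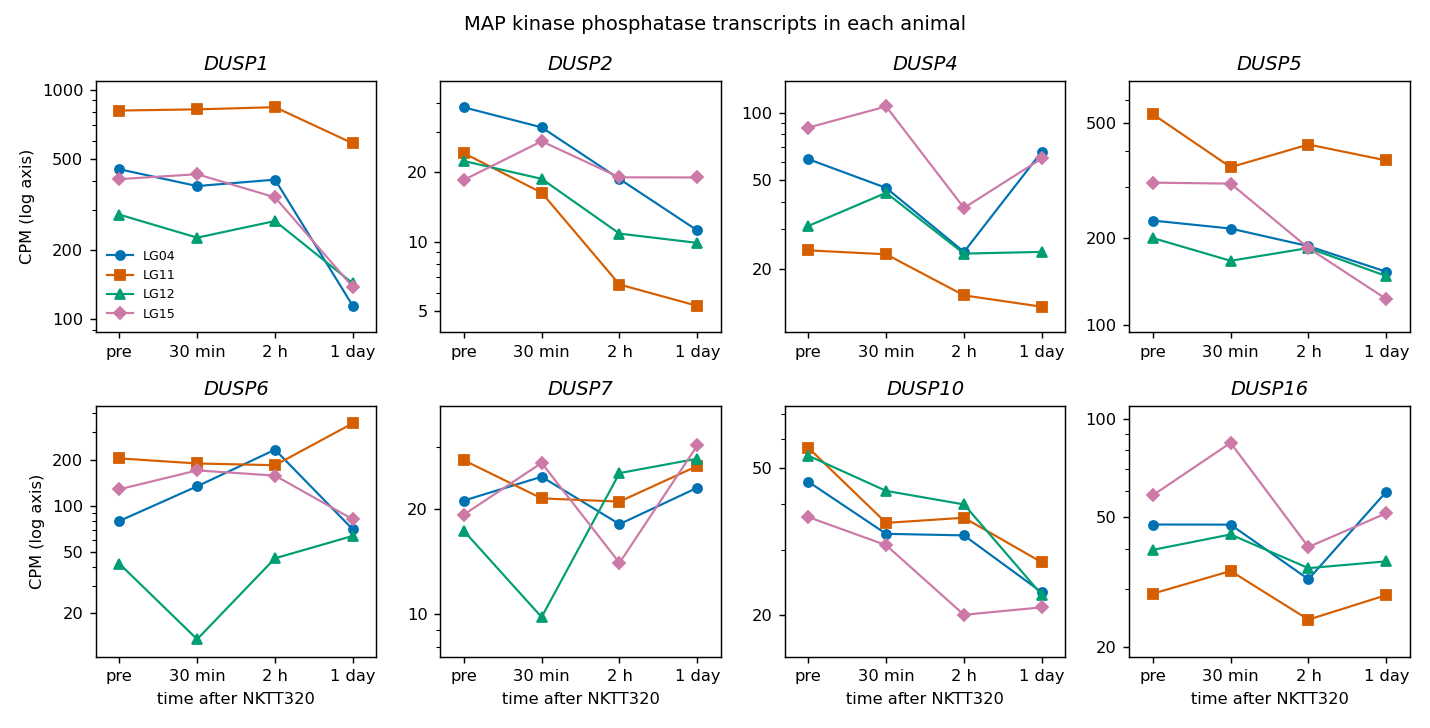
CPM of the 8 phosphatase genes (log axis, a scale of its own in each panel) at the 4 times, with a line for each animal. DUSP10 was lower at 1 day in all 4 animals, with 20.9 to 27.7 CPM against 36.8 to 56.8 CPM before treatment, while LG11 kept the highest DUSP1 level throughout.

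DUSP2, or PAC-1, is a nuclear phosphatase first found in activated T cells. Before treatment DUSP2 stood at 38.2 CPM in LG04, 24.2 in LG11, 22.4 in LG12 and 18.5 in LG15, and at 30 minutes at 31.3, 16.3, 18.7 and 27.2 CPM. The animals had, at 2 hours, 18.7, 6.51, 10.8 and 19.0 CPM, and at 1 day 11.2, 5.26, 9.87 and 19.0 CPM. In LG04, LG11 and LG12 the 2 hours and 1 day levels were below both earlier ones. LG15 had nearly the same CPM at 2 hours, at 1 day and before treatment. At 1 day that depended on the TMM scaling. From pre-treatment to 1 day LG15 went from 20.9 to 15.2 CPM on the raw library total. It went from 22.3 to 19.2 CPM without globin genes, and from 13.0 to 8.97 in the authors' FPKM. DUSP2 averaged 11.3 ± 5.70 CPM at 1 day and 25.8 ± 8.598 CPM before treatment (SD, n = 4 each), and the ranges overlapped through LG15. The log2 change of -1.30 ± 0.30 at 1 day had an adjusted p of 0.0889, and that of -1.04 ± 0.28 at 2 hours had an adjusted p of 0.324 (edgeR quasi-likelihood test, Benjamini-Hochberg). Without LG15, the animal whose TMM-scaled CPM did not fall, DUSP2 passed at 1 day, with a log2 change of -1.75 and an adjusted p of 0.0221 (edgeR quasi-likelihood test). Without LG04, LG11 or LG12 the adjusted p of DUSP2 was 0.427, 0.288 and 0.281 in the same test. The size of its 1 day change was nominally above that of DUSP1, whose counts were far higher: the DUSP2 counts ran from 17 to 228 in a library and the DUSP1 counts from 174 to 6973.

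DUSP4, or MKP-2, is a nuclear phosphatase close to DUSP1 in sequence that acts on ERK and JNK. Before treatment DUSP4 stood at 62.0 CPM in LG04, 24.2 in LG11, 31.1 in LG12 and 85.8 in LG15, and at 30 minutes at 46.1, 23.2, 43.8 and 107 CPM. Levels at 2 hours were 23.8, 15.2, 23.4 and 37.5 CPM, and at 1 day 67.0, 13.5, 23.8 and 62.4 CPM. The 2 hours level was below the pre-treatment level in 4 of 4 animals, and at 1 day LG04 and LG15 stood well above their 2 hours levels while LG11 and LG12 did not. DUSP4 averaged 25.0 ± 9.23 CPM at 2 hours and 50.8 ± 28.6 CPM before treatment (SD, n = 4 each). The log2 change at 2 hours was -0.89 ± 0.24, with an unadjusted p of 0.00305 and an adjusted p of 0.325 in the edgeR quasi-likelihood test. At 1 day it was -0.36 ± 0.24, with a 95% interval of -0.89 to 0.17.

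DUSP5 is a nuclear phosphatase selective for ERK. Before treatment DUSP5 stood at 229.9 CPM in LG04, 535 in LG11, 200.2 in LG12 and 311 in LG15, and at 30 minutes at 216, 351, 167 and 308 CPM. At 2 hours the animals had 188, 420.3, 185 and 185 CPM, and at 1 day 153, 370.4, 148 and 123 CPM. LG04, LG12 and LG15 lay within a narrow band of each other at 2 hours, with LG11 far above them. At 1 day LG04, LG12 and LG15 were below the lowest pre-treatment value and LG11 was not, so the groups overlapped. DUSP5 averaged 199 ± 115 CPM at 1 day and 319 ± 151 CPM before treatment (SD, n = 4 each). The log2 change was -0.70 ± 0.19, lower in 4 of 4 animals, with an adjusted p of 0.116 (edgeR quasi-likelihood test, Benjamini-Hochberg). The pseudogene DUSP5P, a copy of DUSP5 to which its reads could have been assigned, held between 0.874% and 2.38% as many counts as DUSP5.

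DUSP6, or MKP-3, is the cytoplasmic phosphatase of ERK and a classical feedback target of that pathway. Before treatment DUSP6 stood at 79.8 CPM in LG04, 204 in LG11, 42.2 in LG12 and 128 in LG15, and at 30 minutes at 134, 189, 13.6 and 170.1 CPM. The animals had, at 2 hours, 232, 184, 45.7 and 157 CPM, and at 1 day 70.3, 344.6, 63.8 and 81.8 CPM. The animals differed from each other more than for any other member at each of the 4 times (13.9-fold between LG11 and LG12 at 30 minutes), and they did not move together. DUSP6 averaged 140.1 ± 137 CPM at 1 day and 113 ± 69.7 CPM before treatment (SD, n = 4 each). Its log2 changes were 0.03 ± 0.43 at 30 minutes, 0.50 ± 0.43 at 2 hours and 0.26 ± 0.43 at 1 day. The 95% interval at 1 day ran from -0.67 to 1.19, so neither direction was set apart from no change at this spread.

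The summed monocyte markers stood at 7216 CPM in LG11 at 1 day, against 957 to 1214 CPM in the other 3 animals, and at 103 CPM in LG12 at 30 minutes, the lowest value in the study. DUSP6 was also highest and lowest in these libraries. LG12 had the lowest DUSP6 of the animals at all 4 times, and the lowest monocyte sum at all times but 1 day. In LG11 the sum was 4734 CPM at 2 hours and 2027 CPM before treatment, with 184 and 204 CPM of DUSP6. With a monocyte score as a covariate the DUSP6 log2 change turned to -0.57 at 2 hours and to -0.37 at 1 day, and it turned to -0.35 at 30 minutes. The part of monocytes in the levels of DUSP6 was tested no further.

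DUSP7, or MKP-X, is the cytoplasmic ERK phosphatase most like DUSP6. Before treatment DUSP7 stood at 21.1 CPM in LG04, 27.6 in LG11, 17.3 in LG12 and 19.2 in LG15, and at 30 minutes at 24.7, 21.4, 9.78 and 27.1 CPM. Levels at 2 hours were 18.1, 21.0, 25.3 and 13.99 CPM, and at 1 day 23.0, 26.5, 27.9 and 30.4 CPM. DUSP7 averaged 27.0 ± 3.09 CPM at 1 day and 21.3 ± 4.46 CPM before treatment (SD, n = 4 each), with overlapping ranges. The log2 change of 0.35 ± 0.27 at 1 day had a 95% interval of -0.25 to 0.94 and an adjusted p of 0.689 (edgeR quasi-likelihood test, Benjamini-Hochberg). The 1 day level was higher than the 2 hours level in 4 of 4 animals (log2 difference 0.43 ± 0.28, adjusted p of 0.576 with edgeR).

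DUSP16, or MKP-7, is a JNK and p38 phosphatase that shuttles between nucleus and cytoplasm. Before treatment DUSP16 stood at 47.4 CPM in LG04, 29.1 in LG11, 39.6 in LG12 and 58.3 in LG15, and at 30 minutes at 47.4, 34.2, 44.2 and 84.4 CPM. At 2 hours the animals had 32.2, 24.2, 34.9 and 40.5 CPM, and at 1 day 59.8, 28.8, 36.6 and 51.4 CPM. The 2 hours level was the lowest of the 4 in each animal, and at 1 day the animals differed from their own pre-treatment levels by between -0.18 and 0.33 on the log2 scale. DUSP16 averaged 32.9 ± 6.75 CPM at 2 hours and 43.6 ± 12.3 CPM before treatment (SD, n = 4 each). The log2 change at 2 hours was -0.37 ± 0.16, with an unadjusted p of 0.0393 and an adjusted p of 0.639 in the edgeR quasi-likelihood test. At 1 day it was 0.01 ± 0.16, with a 95% interval of -0.34 to 0.37.

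**Figure D2:**
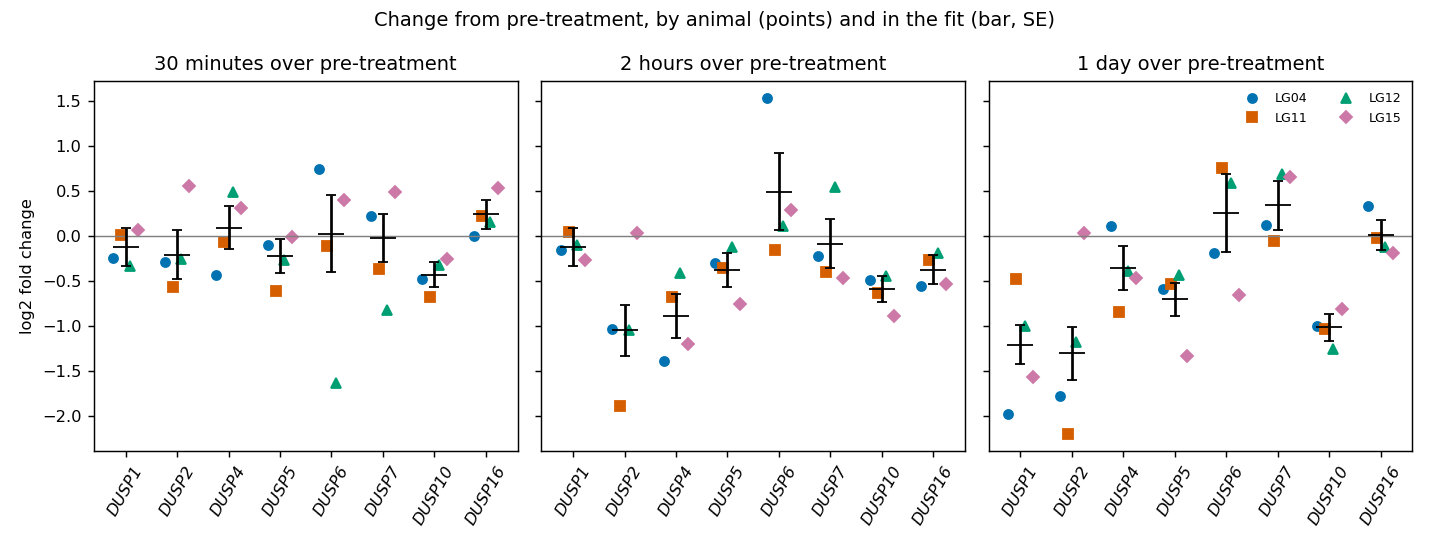
Log2 fold change of each member at 30 minutes, 2 hours and 1 day over pre-treatment, with a point for each animal and the fitted change with its SE as a bar. At 1 day all 4 animals lie below 0 for DUSP1, DUSP5 and DUSP10, whereas the animals lie on both sides of 0 for DUSP6, from -0.65 to 0.76.

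Set against all genes, the members had median log2 changes of -0.07 at 30 minutes, -0.37 at 2 hours and -0.53 at 1 day over pre-treatment, where all 11545 genes had medians of 0.02, 0.02 and -0.0004. At 30 minutes no member and 0% of all genes passed the adjusted threshold, and 1 member (DUSP10) was lower at an unadjusted p under 0.05, as were 1.48% of all genes. At 2 hours no member and 0% of all genes passed, and 4 members (DUSP2, DUSP4, DUSP10 and DUSP16) were lower at an unadjusted p under 0.05, as were 3.27% of all genes. At 1 day 4 members (DUSP1, DUSP2, DUSP5 and DUSP10) were lower at that level, as were 5.13% of all genes. DESeq2 called 0 members at 30 minutes, where it called 0.103% of all genes, 1 at 2 hours (DUSP10), where it called 0.684%, and 4 at 1 day (DUSP1, DUSP2, DUSP5 and DUSP10), where it called 3.46%. These 3 comparisons share the pre-treatment libraries, and the members were chosen with earlier results of these data known.

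Members that were lower in all 4 animals numbered 2 at 30 minutes (DUSP5 and DUSP10), against 4.42% of all genes. At 2 hours they numbered 4 (DUSP4, DUSP5, DUSP10 and DUSP16), against 6.52% of all genes, and at 1 day 3 (DUSP1, DUSP5 and DUSP10), against 9.09% of all genes. DUSP10 was the member whose pre-treatment range and later range did not overlap, and this was so at 1 day alone. At 30 minutes 0.459% of all genes, and at 2 hours 1.03%, had a range wholly below that of pre-treatment, and no member did.

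Between later times no member passed the adjusted threshold with edgeR. At 2 hours against 30 minutes, where 0% of all genes passed, 3 members were lower at an unadjusted p under 0.05, against 2.29% of all genes: DUSP2 (log2 -0.84 ± 0.28), DUSP4 (log2 -0.98 ± 0.25) and DUSP16 (log2 -0.62 ± 0.16), each lower in 4 of 4 animals. At 1 day against 30 minutes, where 0.0433% of all genes passed, 4 members were lower at that level, against 5.4% of all genes, and DESeq2 called 3 of them (DUSP1, DUSP2 and DUSP10) with 2.89% of all genes. Their log2 differences were -1.08 ± 0.22 for DUSP1, -1.10 ± 0.30 for DUSP2, -0.48 ± 0.19 for DUSP5 and -0.59 ± 0.15 for DUSP10. At 1 day against 2 hours, where 0.104% of all genes passed, DUSP1 (log2 -1.08 ± 0.22) and DUSP10 (log2 -0.43 ± 0.15) were lower at an unadjusted p under 0.05, against 5.48% of all genes. In the same comparison DUSP16 was higher at that level (log2 0.39 ± 0.17, in 4 of 4 animals), against 7.12% of all genes, and DESeq2 called DUSP1 with 0.987% of all genes.

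The test of any difference among the 4 times called no member with edgeR, where it called 0.104% of all genes, and 3 with DESeq2 (DUSP1, DUSP2 and DUSP10), where that called 3.81% of all genes. The adjusted p was 0.0568 for DUSP10, 0.0948 for DUSP1 and 0.135 for DUSP2 (edgeR quasi-likelihood test, Benjamini-Hochberg). At an unadjusted p under 0.05 it held 6 of 8 members, all but DUSP6 and DUSP7, against 12.2% of all genes.

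The members' order was taken on the authors' FPKM, which divides by transcript length. Over the 16 libraries DUSP1 averaged 223 FPKM, DUSP5 109 FPKM, DUSP6 49.2 FPKM, DUSP10 14.4 FPKM and DUSP2 11.6 FPKM. DUSP4 with 7.10 FPKM, DUSP7 with 7.07 FPKM and DUSP16 with 6.76 FPKM made up the low end. DUSP1 lay above DUSP5 in 15 of 16 libraries, DUSP5 above DUSP6 in 15 of 16 and DUSP6 above DUSP10 in 14 of 16. DUSP10 lay above DUSP2 in 11 of 16 libraries and DUSP2 above DUSP4 in 13 of 16, while DUSP4 lay above DUSP7 in 8 of 16 and DUSP7 above DUSP16 in 9 of 16, so that the last 3 had no set order.

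Of the members' summed FPKM, DUSP1 made up 51.9% ± 3.70 before treatment, 52.3% ± 7.0 at 30 minutes, 53.8% ± 5.34 at 2 hours and 38.7% ± 7.90 at 1 day (SD, n = 4 each). DUSP6 made up 15.6% ± 3.71 at 1 day and 8.19% ± 2.50 before treatment, and DUSP7 3.60% ± 1.55 at 1 day and 1.47% ± 0.289 before treatment. DUSP5 held 28.4% ± 3.96 at 1 day and 26.7% ± 3.12 before treatment. These are parts of a common sum, so a lower DUSP1 raises the share of the others without a rise in their levels. DUSP4 held 3.27% ± 2.51 at 1 day and 1.98% ± 1.16 before treatment, and DUSP16 3.14% ± 1.76 and 1.60% ± 0.695. Their fitted log2 changes in CPM at 1 day were -0.36 and 0.01. The members' summed FPKM at 1 day was 151 in LG04, 684 in LG11, 234 in LG12 and 148 in LG15. Before treatment it was 379.7, 875, 377 and 489, so the 1 day sum was lower in each animal. These FPKM were used as the authors gave them, without the TMM scaling of the CPM. The members' summed CPM was also lower at 1 day in each animal, but by a smaller factor than the FPKM. It went from 1065.7 to 527.5 CPM in LG15, the largest fall, and from 1713.2 to 1401.6 CPM in LG11, the smallest. How often other genes were lower on the FPKM scale was not tested.

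**Figure D3:**
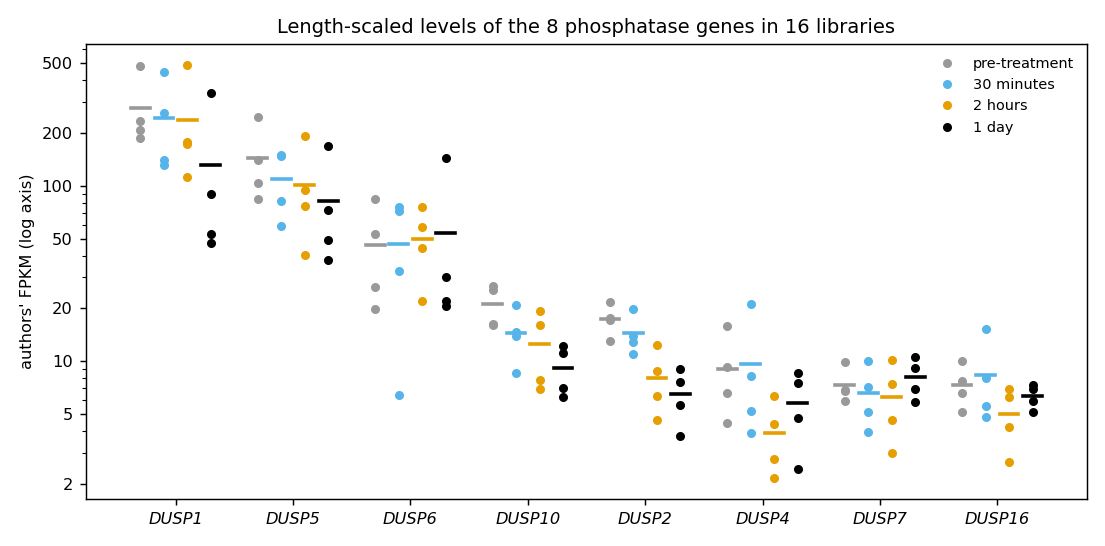
The authors' FPKM (log axis) of the 8 genes in all 16 libraries, in order of their mean, with a point for each animal and a bar at the mean of the 4 animals at each time. DUSP1, DUSP5 and DUSP6 lie at the top, with means of 223, 109 and 49.2 FPKM over the 16 libraries, and DUSP4, DUSP7 and DUSP16 share the low end.

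Likeness between time courses was measured as the Pearson correlation of log2 CPM, centred on the mean of each animal, over the 16 libraries. It is a description, since the 16 points come from 4 animals and share their libraries and depth. DUSP1, DUSP5 and DUSP10 resembled each other, with r between 0.710 and 0.772, and DUSP2 was nearest to DUSP10 (r = 0.729). DUSP4 and DUSP16, which both had their group mean lowest at 2 hours, were the most alike pair (r = 0.891), and DUSP4 and DUSP6 were the least alike (r = -0.631). DUSP6 and DUSP7, the ERK phosphatases of the cytoplasm, were each other's nearest member, but only at r = 0.374.

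Among all genes tested, GCC1 (r = 0.958) and SMCR8 (r = 0.939) were among the 3 most like DUSP1. ZC3H12A (r = 0.906), RHBDL3 and BTG2 were most like DUSP2, and PHF17 (r = 0.970), CAMK4 and ABLIM1 were most like DUSP4. RBBP7 (r = 0.931), YRDC and FASTKD5 were most like DUSP5, and TGFBI (r = 0.978), CPVL and SNX10 were most like DUSP6. CDK2AP2 (r = 0.886), LRRN3 and ZBTB45 were most like DUSP7. ZBTB43 (r = 0.923) and TNFAIP3 were among the 3 most like DUSP10, and FLJ31813 (r = 0.925), WNK3 and PHKA1 were most like DUSP16. No member was among the 3 genes most like another.

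**Figure D4:**
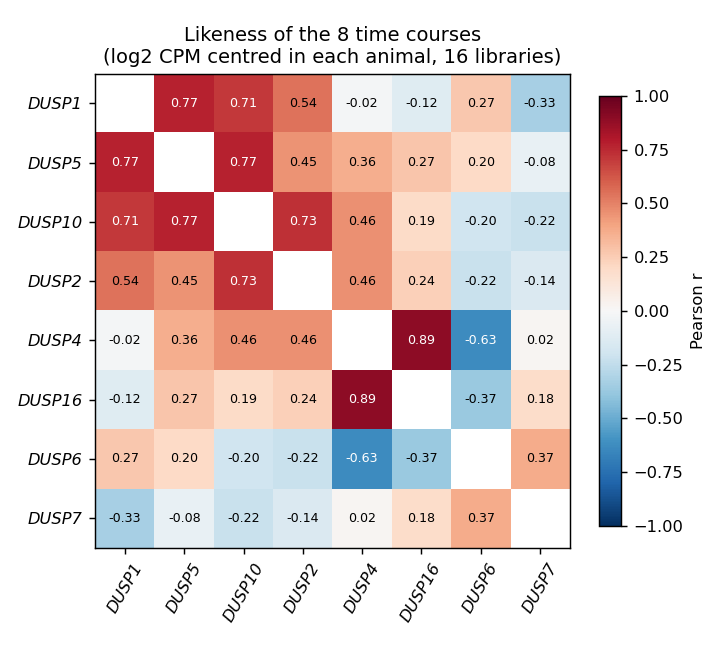
Pearson correlation between the members' log2 CPM, centred on the mean of each animal, over 16 libraries from 4 animals. DUSP1, DUSP5, DUSP10 and DUSP2 form a block of positive values, DUSP4 and DUSP16 a pair with r = 0.891, and DUSP6 and DUSP7 lie apart from both.

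Of the typical MAP kinase phosphatases that are not members, DUSP9 had 0 counts in all 16 libraries and DUSP8 was too low to be tested. DUSP8 had 34, 25, 6 and 7 counts in LG04, LG11, LG12 and LG15 before treatment, 5, 3, 7 and 8 at 30 minutes, 4, 3, 3 and 4 at 2 hours, and 2, 3, 1 and 5 at 1 day. The high counts were those of LG04 and LG11 before treatment. Fitted without a filter on low counts, its log2 change was -1.65 ± 0.63 at 2 hours, with an adjusted p of 0.812 (edgeR quasi-likelihood test, Benjamini-Hochberg), and it was named after its values were seen.

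The atypical dual-specificity phosphatases, smaller enzymes of which many do not act on MAP kinases, had no call in any comparison among 9 of 16 genes tested. DUSP3, which acts on ERK and JNK, averaged 81.4 ± 75.6 CPM at 1 day and 24.3 ± 25.9 CPM before treatment (SD, n = 4 each), higher in 4 of 4 animals, with an adjusted p of 0.247 (edgeR quasi-likelihood test). With a platelet score as a covariate its log2 change was -0.56 in place of 1.42. DUSP19 differed by 1.22 ± 0.32 on the log2 scale at 1 day against 30 minutes (adjusted p of 0.129 with edgeR, higher in 4 of 4 animals). At 2 hours DUSP14 and DUSP12 had log2 changes of -0.86 ± 0.35 and -0.44 ± 0.20, each lower in 4 of 4 animals (adjusted p of 0.624 and 0.656 with edgeR). STYX, a catalytically dead relative, had a log2 difference of -0.43 ± 0.15 at 2 hours against 30 minutes, and DUSP11 one of -0.33 ± 0.15 at 1 day against 30 minutes, each lower in 4 of 4 animals. None of the 4 other phosphatases of MAP kinases that were tested, among them PTPN7 and PPM1A, reached an unadjusted p of 0.05 in any comparison of times.

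The MAP kinases, a list that includes atypical ones, had no call in any comparison. Of 8 MAP kinases tested at 1 day against pre-treatment, 2 were higher and 1 was lower at an unadjusted p under 0.05. Of all 11545 genes, 1570 reached that level in either direction. NLK, an atypical MAP kinase, had a log2 change of 1.38 ± 0.40 (adjusted p of 0.135 with edgeR; -0.18 with the platelet covariate), MAPK14, or p38 alpha, one of 0.35 ± 0.12 (adjusted p of 0.208 with edgeR) and MAPK6, or ERK3, one of -0.54 ± 0.21 (adjusted p of 0.260 with edgeR). Of 7 MAP kinase kinases, MAP2K4, which activates JNK and p38, had 75.3 ± 20.3 CPM at 1 day and 50.02 ± 9.71 CPM before treatment (SD, n = 4 each; adjusted p of 0.130 with edgeR). Of 21 MAP kinase kinase kinases, MAP3K8, which links Toll-like receptors to ERK, had a log2 change of -0.62 ± 0.15 at 1 day, lower in 4 of 4 animals (adjusted p of 0.0917 with edgeR). In the same comparison TAOK3 had one of 0.41 ± 0.17, higher in 3 of 4 animals, and MAP3K5, or ASK1, one of 0.33 ± 0.13, higher in 4 of 4 (adjusted p of 0.298 and 0.270 with edgeR). No gene was called among 13 genes of RAS input, 11 kinases activated by MAP kinases and 5 feedback inhibitors of the ERK pathway, in any comparison. Among those feedback inhibitors SPRY2 had a log2 change of -0.78 ± 0.30 at 30 minutes, lower in 4 of 4 animals, and SPRED1 one of 0.58 ± 0.23 at 2 hours, higher in 4 of 4 animals (adjusted p of 1.00 and 0.603 with edgeR).

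The immediate-early genes, which MAP kinases and other signals switch on within minutes, had 3 calls, all lower, among 19 genes tested at 1 day against pre-treatment. The list median was -0.87 on the log2 scale, 18 of the 19 had a negative fitted change, and 14 were lower at an unadjusted p under 0.05. NR4A2, an orphan nuclear receptor, fell by 2.24 ± 0.18 (adjusted p of 0.00022 with edgeR), and its relative NR4A3 fell by 2.42 ± 0.35 (adjusted p of 0.0148 with edgeR). FOS, a subunit of AP-1, fell by 1.70 ± 0.24 (adjusted p of 0.0148 with edgeR), and JUN, its partner, had a log2 change of -2.0 ± 0.39 with an adjusted p of 0.0630 (edgeR quasi-likelihood test). NR4A2 was also called at 1 day against 30 minutes, with a log2 difference of -1.45 ± 0.18, and against 2 hours, with one of -1.26 ± 0.18. The NR4A2 call at 1 day against pre-treatment held without each animal in turn, with an adjusted p of at most 0.0453, but not with the 4 shallowest libraries left out (0.0667) or with the platelet covariate (0.0562). That of NR4A3 was lost without LG04 (adjusted p of 0.115), LG11 (0.134) or LG12 (0.154), and that of FOS without LG04 (0.122) or LG12 (0.174), in the edgeR quasi-likelihood test. With the platelet covariate they had an adjusted p of 0.881 and 0.991.

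Of 6 ERK output genes tested, FOS, which stands on both lists, was called at 1 day. The list median was 0.47 on the log2 scale, with 4 genes higher and 2 lower. CCND1 had a log2 change of 1.89 ± 0.71 at 1 day, higher in 3 of 4 animals (adjusted p of 0.238 with edgeR). MYC, a growth-promoting transcription factor, had a log2 change of 0.83 ± 0.24 at 1 day, higher in 4 of 4 animals (adjusted p of 0.136 with edgeR), and it had one of 0.69 ± 0.24 at 30 minutes. Of 9 glucocorticoid-induced genes, a list included because DUSP1 is itself induced by glucocorticoids, NFKBIA, the inhibitor of NF-kB, fell by 0.97 ± 0.15 at 1 day (adjusted p of 0.0207 with edgeR). That call was lost without LG04, LG11 or LG12 (adjusted p of 0.164, 0.134 and 0.254) and without the LG04 library of 1 day alone (0.0533). FKBP5, a co-chaperone of the glucocorticoid receptor, had a log2 change of 1.58 ± 0.38 at 2 hours (adjusted p of 0.243 with edgeR) and CD163, a receptor of monocytes for haemoglobin, one of 3.08 ± 0.61 (adjusted p of 0.174 with edgeR), both higher in 4 of 4 animals. CD163 also stands on the list of monocyte markers, whose median at 2 hours was 1.84 on the log2 scale.

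On the lists of cell type markers, a marker counted as detected when it was above 0 in any of the 16 libraries. That rule is too lenient to check the PBMC label, since the neutrophil, platelet and red cell lists met it too. All markers were detected: 8 of 8 for T cells, 6 of 6 for B cells, 5 of 5 for NK cells, 7 of 7 for monocytes, 5 of 5 for dendritic cells, 7 of 7 for neutrophils, 6 of 6 for platelets and 7 of 7 for red cells. No marker was called at any time against pre-treatment with edgeR.

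At 30 minutes, when DUSP10 was lower at an unadjusted p under 0.05, the summed NK cell markers stood at 71.0 to 119 CPM, against 118 to 177 CPM before treatment, lower in 4 of 4 animals. The summed B cell markers stood at 138 to 514 CPM at 30 minutes, against 92.0 to 481 CPM before treatment, and the summed neutrophil markers at 109 to 6999.5 CPM, against 102 to 4408 CPM, both higher in 4 of 4 animals.

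At 2 hours, when DUSP2, DUSP4, DUSP10 and DUSP16 were lower at an unadjusted p under 0.05, the summed monocyte markers stood at 1026 to 5337 CPM, against 388 to 2027 CPM before treatment, higher in 4 of 4 animals. The summed T cell markers stood at 622 to 788 CPM at 2 hours, against 915 to 1035 CPM before treatment, lower in 4 of 4 animals. At 1 day, when DUSP1 and DUSP10 were called, the summed platelet markers stood at 688 to 30009 CPM, against 115 to 9027 CPM before treatment, higher in 4 of 4 animals. The summed neutrophil markers stood at 129 to 309 CPM at 1 day, against 102 to 4408 CPM before treatment, lower in 3 of 4 animals.

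At 1 day the summed monocyte markers were higher in 2 of 4 animals (957 to 7216 CPM, against 388 to 2027 CPM before treatment). The B cell sum (123 to 681 CPM, against 92.0 to 481 CPM) and the dendritic cell sum (31.6 to 229 CPM, against 31.7 to 162 CPM) were likewise higher in 2 of 4. The T cell sum was higher in 1 of 4 (657 to 970.0 CPM, against 915 to 1035 CPM) and the NK cell sum in 0 of 4 (117 to 153 CPM, against 118 to 177 CPM). The red cell sum, which is mostly globin, was higher in 2 of 4 at 1 day.

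With a monocyte score as a covariate, DUSP1 (log2 -1.41, adjusted p of 0.00752) and DUSP10 (log2 -0.94, adjusted p of 0.0203) kept their calls at 1 day in the edgeR quasi-likelihood test, and DUSP2 and DUSP5 joined them. With a platelet score no member was called: DUSP10 had a log2 change of -1.02 with an adjusted p of 0.881, and DUSP1 one of -0.77 with an adjusted p of 0.991 (edgeR quasi-likelihood test). Platelet markers were higher at 1 day in all 4 animals, so the score and time overlapped in that fit. The part of the T cell, NK cell, B cell, neutrophil and other markers in the levels of the members was not tested.

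**Figure D5:**
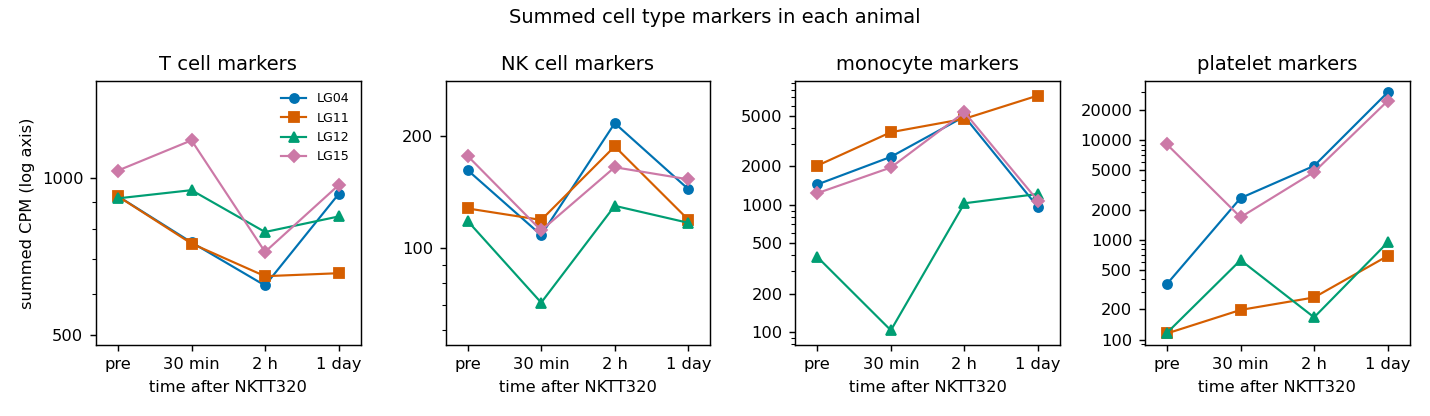
Summed CPM (log axis) of the markers of T cells, NK cells, monocytes and platelets at the 4 times, with a line for each animal. Monocyte markers stood at 7216 CPM in LG11 at 1 day, apart from the other 3 animals, and platelet markers were higher at 1 day than before treatment in all 4.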

How the data were processed

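Total RNA of PBMC was sequenced as single reads of 75 cycles. The authors deposited whole-number counts per gene on human gene models, with FPKM beside them. Per the submitters' processing notes, STAR and HTSeq belonged to the tools, as did FastQC and Trimmomatic, with DESeq and edgeR also named, and GRCh37 and hg19 are the builds listed, so reads that differ between macaque and human may have been lost. Their versions, and whether counting used strand, were not given in the sources used here.

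The analysis took its counts from each animal's own tables. Entries that share a symbol were summed (24369 entries, 23602 symbols), and 0 entries named no gene. Of 32 further copies of count columns, 31 were identical to the library they name. The exception was a series-wide LG04 column of 2 hours, which holds the same values as the LG04 library of 1 day in that animal's own table; the animal's own tables were followed, since the files do not settle which label is right. Columns of per-sample values that matched no sample numbered 0. Over 120 pairs of libraries the smallest chi-square per gene was 5.192, so no library counted as a copy of another.

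edgeR 4.0.16 in R 4.3.3 fitted time and animal to all 16 libraries (TMM, filterByExpr, glmQLFit and glmQLFTest, 9 residual degrees of freedom), with Benjamini-Hochberg adjustment over the 11545 genes tested and a threshold of 0.05. Fold changes are the later time over the earlier one. Per-animal values used CPM, with a prior count of 2 on the log2 scale for likeness. Animal is a block because the same 4 animals were bled each time: 23 of 24 pairs of libraries from the same animal deviated together with a correlation over 0.1 (median 0.557, lowest 0.0606). The libraries are separate bleeds, and p-values describe 4 animals. Alternatives were DESeq2 1.42.0, RLE size factors, no filter, each animal, the LG04 library of 1 day or the 4 shallowest libraries left out, no block, only the 2 times compared, globin genes removed, and marker scores as covariates.

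The members and lists were chosen with earlier results of these data known. Every member is given, with the 3 tested genes most like it, of which some are not reported here. Of other lists a gene may be named where called, or where among the 3 largest changes of its list at an unadjusted p under 0.05. All 8 symbols are also in a RefSeq table of the macaque, whose build differs from that of the files, so coordinates were not used here. A count of 0 allows up to 3 counts, which covers counting error only.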

Additional observations from a re-analysis of the deposited data

Results flagged for a closer look

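Of 32 groups of 4 animals (8 members at 4 times), 4 held an animal far from the others by Dixon's test at 95%, and LG11 was that animal each time. In 1 of 20 groups chance alone would do so. LG11 had 584.7 CPM of DUSP1 at 1 day, and the gap to the next animal made up 0.938 of the group's range. It had 420.3 CPM of DUSP5 at 2 hours (0.988 of the range) and 370.4 CPM at 1 day (0.879), and 344.6 CPM of DUSP6 at 1 day (0.936). The groups share an animal and DUSP1 and DUSP5 resembled each other, so these are not separate events. LG11 had the highest summed monocyte markers at 1 day, with 7216 CPM against 957 to 1214 CPM in the other 3 animals, and their part in these levels was not tested.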

How the results depend on the processing

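Of the 2 members called at 1 day against pre-treatment (DUSP1 and DUSP10), DESeq2 and a monocyte covariate called 4 in that comparison, the LG04 library of 1 day left out gave 1, and the fits with a platelet covariate, with only the 2 times compared or with the 4 shallowest libraries left out gave 0. Leaving out 1 animal gave between 0 and 2. Without the replicate block the count was 0, and animals then add to the spread. RLE size factors, no filter and removal of globin genes gave 2, 3 and 2. At 2 hours DESeq2 called 1. At 1 day against 30 minutes DESeq2 called 3, no filter 1 and the monocyte covariate 1, and at 1 day against 2 hours DESeq2 called 1, where edgeR called 0. For any difference among the 4 times DESeq2 called 3, no filter 3, globin removal 1 and the monocyte covariate 1. Over all genes the 26 calls at 1 day became 400 with DESeq2, 70 without the filter, 466 with the monocyte covariate, 0 with the platelet covariate and without the 4 shallowest libraries, 3 without the block and 1 with only the 2 times compared, and between 1 and 67 with 1 animal left out. The 5 calls at 1 day against 30 minutes became 334 with DESeq2, and the 12 at 1 day against 2 hours became 114. The cause of these shifts was not tested, beyond the smaller number of libraries where some were left out. Of 336 log2 changes of members recomputed under the alternatives, 286 kept their direction and side of the threshold, 27 changed sign, 16 lost and 7 gained a call. DUSP4 at 30 minutes ran from -0.060 to 0.22 with 1 animal left out and was -0.049 without the 4 shallowest libraries. DUSP6 at 30 minutes was -0.032 with DESeq2, -0.0063 with RLE size factors, -0.011 with no filter, -0.061 with only the 2 times, -0.0046 without the LG04 library of 1 day, -0.017 without globin genes and -0.35 with the monocyte covariate, and with 1 animal left out it ran from -0.25 to 0.32. DUSP7 at 30 minutes was 0.15 without the 4 shallowest libraries and 0.031 with the platelet covariate, and ran from -0.22 to 0.091 with 1 animal left out. At 2 hours DUSP1 was 0.037 with the platelet covariate and DUSP6 -0.57 with the monocyte covariate, and DUSP7 was 0.017 without the 4 shallowest libraries and 0.053 with the platelet covariate and ran from -0.35 to 0.032 with 1 animal left out. At 1 day DUSP6 was -0.37 with the monocyte covariate, and DUSP16 was -0.030 with no filter, -0.18 without the 4 shallowest libraries, -0.15 without the LG04 library of 1 day and -0.0021 without globin genes, running from -0.12 to 0.089 with 1 animal left out. With the platelet covariate, CCND1, DUSP3 and NLK at 1 day were -0.45, -0.56 and -0.18. By their counts summed over the 16 libraries (1471, 1773 and 2905), depth limits DUSP2, DUSP7 and DUSP10 most. Their lowest counts in a library were 17, 23 and 35. DUSP10 held 35, 39 and 53 counts in LG04, LG12 and LG15 at 1 day. DUSP6 had a low of 32 counts, in LG12 at 30 minutes, but 12141 in sum.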
